A study of Mus musculus with 48 samples.

Results

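The HoxC cluster genes were followed through single-cell RNA-seq of the hypothalamus at E18.5, in control embryos and in embryos that lacked Eed in the nervous system (Eed-cKO). The genes were chosen by name: Hoxc4, Hoxc5, Hoxc6, Hoxc8, Hoxc9, Hoxc10, Hoxc11, Hoxc12 and Hoxc13. Of these 9 genes, 8 had a row in the count table of 16510 genes, and Hoxc11 was not analysed here. Control embryos carried 2 floxed Eed alleles and no Cre (Eed fl/fl), and Eed-cKO embryos carried the same alleles with 1 copy of Sox1-Cre (Eed fl/fl; Sox1-Cre/+). All were on a mixed genetic background, and the labels name no treatment. Sox1-Cre acts in the early neuroepithelium of the whole central nervous system, so neurons and glia of the Eed-cKO descend from recombined progenitors, whereas blood vessels, meninges and microglia keep Eed. The hypothalamus was therefore not the only mutant region.

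Cells came from 6 control embryos in 22 libraries (7186 cells) and from 9 Eed-cKO embryos in 26 libraries (6935 cells), of which 5 embryos were female and 4 male. Library totals ranged from 1112165 to 4513505 unique molecular identifiers (UMIs) in the control and from 576432 to 2410229 in the Eed-cKO. The embryo was the replicate throughout. No litter, read from the leading number of the embryo names, held both genotypes, so genotype and litter cannot be told apart. Cell barcodes recurred between libraries for 101 of 14019 barcodes, and 1 control library held 1207 cells against a median of 280. Eed itself, whose deleted exons lie outside the part that 3′ tags read, was at 32.0 ± 1.89 CPM (counts scaled to a common total of UMIs; SD, n = 6) in control neural cells and 23.4 ± 2.62 CPM (n = 9) in Eed-cKO neural cells (log2 difference −0.45, edgeR adjusted p = 0.000464), with no overlap between the groups.

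Hox genes encode homeodomain transcription factors that lie in the HoxA, HoxB, HoxC and HoxD clusters, and they give cells of the trunk, limb and hindbrain their position along the head-to-tail axis. Genes at one end of a cluster act anteriorly and genes at the other end act posteriorly. The forebrain, hypothalamus included, does not normally express them. Outside their domains the clusters are covered by H3K27me3, the mark placed by Polycomb repressive complex 2 (PRC2), of which Eed is a core subunit that binds the mark and is needed for its deposition.

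The cluster lies on the plus strand of chromosome 15 (GRCm38, GENCODE gene models). Hoxc13 starts it at position 102921103, and Hoxc4 ends it at 103036852. In between, by the start of their gene models, come Hoxc12 (102936757 to 102938609), Hoxc10 (102966796 to 102971893), Hoxc5 (102967443 to 103017429), Hoxc9 (102976439 to 102985099), Hoxc8 (102990607 to 102994111) and Hoxc6 (102998257 to 103011881). The Hoxc5 model is long, as it starts inside Hoxc10 and ends beyond Hoxc6. The sequences below and the figures order the genes by the end of their models, which puts Hoxc5 between Hoxc6 and Hoxc4. The Hoxc5 model overlaps the first exon of Hoxc10 by 166 bases, so a tag there could be counted to either gene. The coding sequences share a homeobox of 180 bases whose identity between pairs of genes ran from 48.3% (Hoxc5 and Hoxc13) to 77.8% (Hoxc5 and Hoxc6). To show how far related members can be told apart by sequence, 30 bases from within the part that encodes the recognition helix of the homeodomain are given. They run 5′ to 3′ on the coding strand. Capitals mark the positions that were not the same in all 9 genes of the cluster, and 17 positions were the same.
Hoxc13: tggttCcaGaaTCgACgCGtgaaAGAGaaA
Hoxc12: tggttCcaGaaCCgGAgAAtgaaAAAGaaA
Hoxc10: tggttTcaAaaTCgCAgAAtgaaACTCaaG
Hoxc9: tggttTcaGaaCCgGAgGAtgaaGATGaaA
Hoxc8: tggttCcaGaaTCgAAgGAtgaaGTGGaaA
Hoxc6: tggttCcaGaaCCgCCgCAtgaaGTGGaaA
Hoxc5: tggttCcaGaaCCgCAgGAtgaaGTGGaaG
Hoxc4: tggttCcaAaaCCgTCgTAtgaaATGGaaG
Whole transcripts were compared with a single transcript taken per gene. Among these the longest identical run between any pair of members was 22 bases (Hoxc8 and Hoxc9). The 166 bases of overlap between the Hoxc5 model and Hoxc10 were not part of the Hoxc5 transcript compared, and other transcripts were left out.

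The first question was whether HoxC transcripts appeared in the hypothalamus when Eed was lost, and at what level. Not a single HoxC UMI was counted in any of the 22 control libraries, while 5960 were counted in 2065 Eed-cKO cells, and every one of the 26 Eed-cKO libraries held some. In control neural cells with at least 2000 UMIs, 0 of 5610 cells held a HoxC UMI, which allows a share of up to 0.0535%. Summed over the 8 genes, the level in neural cells of the Eed-cKO ranged from 143 to 226 CPM with a median of 179 (mean 183.8 ± 26.5 CPM, SD, n = 9). The groups did not overlap, and the embryos of the Eed-cKO differed among themselves by less than 2-fold. Embryo sums mix the number of cells that hold a transcript with the amount per cell, and the shares of cells are given further on.

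Hoxc10 and Hoxc13 were the most abundant members, followed by Hoxc8 and Hoxc9, then Hoxc6 and Hoxc4, while Hoxc5 and Hoxc12 were close to the limit of detection. Hoxc10, which acts in the lumbar spinal cord and hindlimb, was at 0 CPM in all 6 control embryos and ran from 50.2 to 88.4 CPM with a median of 65.5 in the 9 Eed-cKO embryos (mean 66.9 ± 11.5). Hoxc13, the most posterior gene of the cluster and a regulator of hair and nail keratins, ran from 33.4 to 64.7 CPM with a median of 52.9 (mean 51.2 ± 9.40). Hoxc8, which acts in brachial motor neurons and the thoracic skeleton, ran from 20.2 to 32.0 CPM with a median of 28.1 (mean 26.6 ± 4.50). For each of these 3 genes the lowest Eed-cKO embryo lay far above the control embryos, all at 0. Hoxc9, which sets thoracic motor neuron identity, ran from 14.4 to 24.7 CPM with a median of 19.3 (mean 19.97 ± 3.55). Hoxc4, a gene of the cervical level, ran from 6.79 to 14.2 CPM with a median of 8.20 (mean 9.18 ± 2.54). Hoxc6, a brachial gene, ran from 5.95 to 11.1 CPM with a median of 9.47 (mean 8.82 ± 1.85). These lower members were present in every Eed-cKO embryo too. Hoxc5, known from the phrenic motor column, held 33 UMIs in all, and its level ran from 0 to 1.64 CPM with a median of 0.868. Hoxc12, a posterior gene next to Hoxc13, held only 11 UMIs and ran from 0 to 0.687 CPM with a median of 0.202. Both of the last 2 genes were at 0 in some Eed-cKO embryos and so overlapped the control.

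**Figure D1:**
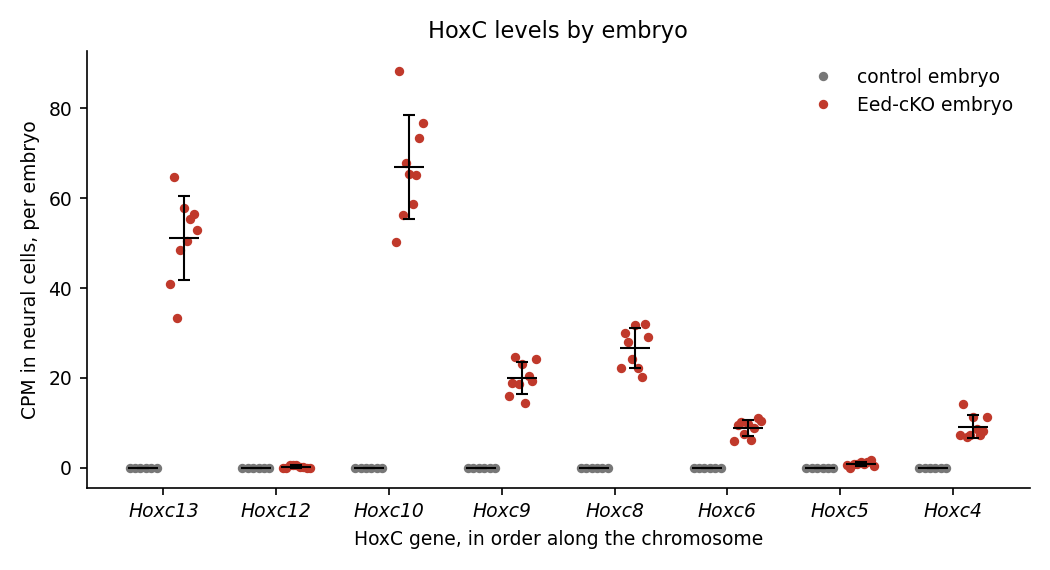
Level of each HoxC gene in neural cells (CPM, vertical axis) in 6 control embryos (grey) and 9 Eed-cKO embryos (red), with the genes in order of the end of their models along the chromosome. Each point is 1 embryo and bars give the mean and SD. Control points all lie at 0, and Hoxc10 and Hoxc13 reach 88.4 and 64.7 CPM.

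Because control embryos were at 0, a fold change is a lower bound, taken against 3 UMIs over the whole control group (0.0799 CPM). Hoxc10 was at least 837-fold higher, Hoxc13 at least 640-fold, Hoxc8 at least 333-fold, Hoxc9 at least 250-fold, Hoxc4 at least 115-fold, Hoxc6 at least 110-fold, Hoxc5 at least 11.1-fold and Hoxc12 at least 3.15-fold. In the edgeR quasi-likelihood test over embryo sums, 6 of the 8 genes passed the filter on low counts and 6 of 6 were higher in the Eed-cKO, against 15.3% of the 12546 genes tested. These 6 passed the filter only through the group in which they are high, so the count is no support of its own. Adjusted p-values ran from 1.56e-13 (Hoxc10) to 1.29e-09 (Hoxc4). Without the filter, Hoxc5 (edgeR adjusted p = 4.23e-05) and Hoxc12 (edgeR adjusted p = 0.0113) were called higher as well.

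Levels of different genes were compared per kilobase of exon, although a 3′ tag assay counts each molecule about once whatever its length. Per kilobase the order was Hoxc10 (35.0 ± 6.04 CPM per kb), Hoxc13 (20.8 ± 3.82), Hoxc8 (9.41 ± 1.59), Hoxc9 (8.22 ± 1.46), Hoxc6 (3.66 ± 0.767), Hoxc4 (3.58 ± 0.990), Hoxc5 (0.288 ± 0.157) and Hoxc12 (0.244 ± 0.277). The order did not follow position along the chromosome, since Hoxc12 lies between Hoxc13 and Hoxc10 and was the lowest. Of the 7 neighbouring pairs in this order, 4 differed in all 9 embryos (exact two-sided sign-flip permutation test, adjusted p = 0.00684). The order and the pairs were taken from the same embryo values, so these tests describe its steadiness and are no support of their own. The other pairs did not differ beyond the spread between embryos: Hoxc8 and Hoxc9 (7 of 9 embryos, exact test, adjusted p = 0.0656), Hoxc6 and Hoxc4 (4 of 9, exact test, adjusted p = 0.813), and Hoxc5 and Hoxc12 (5 of 9, exact test, adjusted p = 0.720). Female and male Eed-cKO embryos were not distinguishable in any of the 8 genes or their sum (exact permutation test, lowest unadjusted p = 0.159, all adjusted p of 0.75 or more).

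The next question was which cells held the transcripts. To compare cells at matched depth, each cell was thinned to 2000 UMIs and shallower cells were left out (1231 control and 1015 Eed-cKO neural cells). At this depth 1215 of 5439 neural cells of the Eed-cKO held a HoxC UMI, a share that ran from 16.7 to 28.9% between embryos with a median of 24.0% (mean 23.4 ± 3.90%, SD, n = 9). Without thinning the share was 31.6% of 6454 cells. HoxA genes were found in 19.6% of cells on average over embryos, HoxB genes in 15.05% and HoxD genes in 12.3%. Most positive cells held little: 55.0% of the cells with Hoxc10 had a single UMI of it, and so did 53.5% of those with Hoxc13 and 88.5% of those with Hoxc6. The highest count in a cell was 10 UMIs, for Hoxc13.

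Non-neural cells, in which Sox1-Cre is not active, were taken as the background level. The source of their HoxC UMIs was not tested. Of 361 endothelial, vascular leptomeningeal, mural and microglial cells of the Eed-cKO, 10 held a HoxC UMI (2.77%, 95% exact binomial interval 1.34 to 5.04%, counting error only). In the 8 embryos with at least 10 cells of both kinds, the share was 22.8 ± 3.67% in neural and 2.47 ± 1.72% in non-neural cells, and neural cells were higher in 8 of 8 (exact two-sided sign-flip permutation test, p = 0.00781, the smallest that 8 embryos allow). Median depths before thinning were 4981 and 4652 UMIs. The neural set also held the clusters that took no cell type name, in which 79 of 510 cells had a HoxC UMI. Without the Tfap2b-led cluster described next, the difference fell from 20.3 to 6.64 points and held in the same test (exact p = 0.00781).

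Clusters were made without any Hox gene and are named by their leading genes. They were rebuilt here, so their borders may differ from those of the study. The HoxC share differed strongly between them, and this is a description rather than a test. The highest share, 59.6% (876 of 1470 cells, 54.8 to 68.0% between embryos), was in a neuron-like cluster led by Tfap2b, Lamp5, Gata3 and Dmbx1. Tfap2b encodes AP-2β and Gata3 a zinc finger factor, both of which are known from GABAergic neurons of the hindbrain and midbrain. That cluster held 1570 Eed-cKO cells and only 47 control cells, of which 0 of 47 had a HoxC UMI, which at this number allows up to 6.38%.

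Clusters led by Cend1 and by Rn45s took no cell type name. They held 355 and 191 Eed-cKO cells, of which 44 and 18 reached 2000 UMIs, and 10 of 44 (22.7%) and 2 of 18 (11.1%) had a HoxC UMI. Their summed HoxC levels, over cells of all depths, were 254 and 152 CPM.

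The second highest neuron-like share, 28.0% (35 of 125 cells), was in a cluster led by Lhx6, a factor of telencephalic interneurons. Neurons led by Trh and Tbr1 had 14.8% (27 of 183), and those led by Sp8 and Pax6 had 13.6% (15 of 110). Those led by Hmx2 and Hmx3 had 8.77% (15 of 171), and those led by Nr5a1 and Fezf1, of the ventromedial nucleus, had 7.87% (7 of 89). Neurod6 neurons had 6.47% (15 of 232). In contrast, several kinds of hypothalamic neuron were at or near the background of non-neural cells. Neurons led by Ppp1r17 had 3.87% (11 of 284) and those led by Cited1 and Npy 3.37% (17 of 505). Those led by Gbx2 and Lhx9 had 2.78% (1 of 36), with all Eed-cKO cells from 1 embryo. Neurons led by Barhl1 and Irx5 had 2.12% (8 of 378), those led by Foxb1, of the mammillary body, 1.60% (7 of 438), those led by Cck and Emx2 1.24% (2 of 161), and those led by Avp and Sim1, of the paraventricular and supraoptic nuclei, 0.719% (1 of 139). The last 4 shares lay below the 2.77% of non-neural cells, so they are not read as expression. They were not compared with non-neural cells by a test.

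Among glia, astrocyte-like cells led by Gfap and Aqp4 had 23.9% (77 of 322 cells, 9.09 to 29.2% between embryos). Ependymal-like cells had 17.1% (7 of 41), and tanycyte-like cells, the radial glia that line the ventricle, had 6.12% (15 of 245). Astrocyte-like cells, like the Tfap2b-led neurons, were mostly of the Eed-cKO (370 cells against 12 in the control). Of the 1215 HoxC-positive neural cells, 72.1% were in the Tfap2b-led cluster, 13.3% in the other neuron-like clusters and 6.34% in the astrocyte-like cluster. The remaining 8.31% were in other clusters of the neural set, most of them in clusters without a cell type name.

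**Figure D2:**
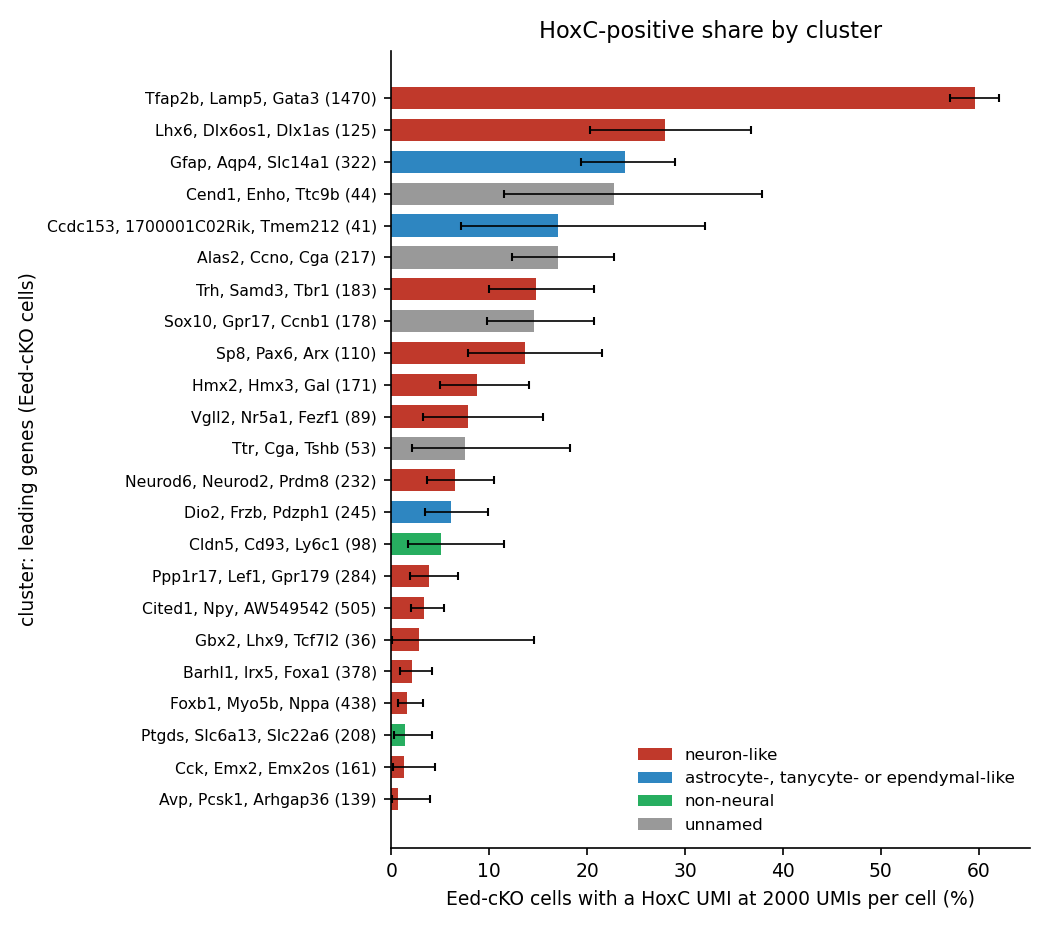
Share of Eed-cKO cells with a HoxC UMI (%, horizontal axis) at 2000 UMIs per cell, for the clusters with 36 or more such cells. Rows give 3 leading genes and the number of cells, and bars carry 95% exact binomial intervals. The Tfap2b-led cluster stands at 59.6%, and clusters led by Avp, Cck and Foxb1 lie below 2%.

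Among neurons, every member with more than a few UMIs was concentrated in the same cluster. In the Tfap2b-led cluster Hoxc10 was found in 31.2% of cells, Hoxc13 in 24.6%, Hoxc8 in 13.7%, Hoxc9 in 10.2%, Hoxc4 in 3.61%, Hoxc6 in 3.27%, Hoxc12 in 0.272% and Hoxc5 in 0.204%. In the 2851 cells of the other neuron-like clusters the same shares were 2.00% for Hoxc10, 1.33% for Hoxc13, 1.26% for Hoxc8, 1.05% for Hoxc9, 0.772% for Hoxc4 and 0.386% for Hoxc6, with 0 cells for Hoxc5 and Hoxc12. Single clusters among these came nearer to it or passed it for some members. Lhx6-led neurons had Hoxc9 in 8.80% of 125 cells, Hoxc6 in 4.00% and Hoxc4 in 3.20%. They had Hoxc10 in 10.4%, Hoxc8 in 6.40% and Hoxc13 in 4.00%. Neurons led by Nr5a1 and Fezf1 had Hoxc4 in 4.49% of 89 cells. The summed HoxC level was 511 CPM in the Tfap2b-led cluster and 36.0 CPM in the other neuron-like clusters. HoxA, HoxB and HoxD genes were found in 44.8%, 33.1% and 29.3% of its cells. When glia were included, Hoxc6 was more frequent in astrocyte-like (7.14%) and ependymal-like cells (9.76%, 4 of 41) than in the Tfap2b-led cluster. Hoxc5 was as well, but in only 2 astrocyte-like cells (0.621%) and 1 ependymal-like cell (2.44%).

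Neurons with a Tfap2b UMI were then compared with the other neuron-like cells of the same embryo. Tfap2b was found in 8.75 ± 3.41% of Eed-cKO neurons (n = 9) and in 0.185 ± 0.0802% of control neurons (n = 6). In Tfap2b-positive neurons of the Eed-cKO the HoxC share ran from 53.8 to 100% with a mean of 64.4 ± 14.1%, and in the other neurons it ran from 15.9 to 27.04% with a mean of 22.0 ± 4.45%. The ranges did not overlap. The difference was 42.4 ± 13.6 percentage points, with Tfap2b-positive neurons higher in 9 of 9 embryos (exact two-sided sign-flip permutation test, p = 0.00391, the smallest that 9 embryos allow). The 100% came from 11 of 11 cells of 1 male embryo, and without it the mean difference was 38.5 points. Median depths were close, at 4755 and 5082 UMIs before thinning. No HoxC UMI was found in the 9 Tfap2b-positive control neurons of at least 2000 UMIs, a number too small to set a limit below 33.3%.

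The summed counts gave the same for single genes. They were taken without thinning over neuron-like cells of every depth, classed by a Tfap2b UMI in the counts as deposited. These classes therefore do not hold the same cells as those of the shares. Hoxc13 was at 172 ± 55.3 CPM in Tfap2b-positive neurons and 44.2 ± 10.99 CPM in the others (log2 difference 1.88 ± 0.12 SE, edgeR adjusted p = 6.11e-36). Hoxc10 was at 222 ± 63.3 and 61.8 ± 15.4 CPM (log2 difference 1.85 ± 0.10, edgeR adjusted p = 3.66e-41). Hoxc8 was at 79.0 ± 19.8 and 21.7 ± 6.49 CPM (log2 difference 1.86 ± 0.16, edgeR adjusted p = 1.18e-21). Hoxc9 was at 47.3 ± 13.3 and 18.04 ± 4.92 CPM (log2 difference 1.41 ± 0.19, edgeR adjusted p = 4.17e-10). For these 4 genes the highest embryo without Tfap2b lay below the lowest with it, a separation shown by 0.29% of the 12432 genes tested. Hoxc6 was at 19.4 ± 8.65 and 5.22 ± 2.43 CPM (log2 difference 1.67 ± 0.34, edgeR adjusted p = 7.39e-05), and Hoxc4 at 19.1 ± 13.3 and 8.61 ± 3.08 CPM (log2 difference 0.98 ± 0.31, edgeR adjusted p = 0.0272). Both were higher in 8 of 9 embryos and overlapped.

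In all, 6 of the 6 members that passed the filter were higher in Tfap2b-positive neurons, where 3.43% of all genes tested were. Their median log2 difference was 1.76, beside −0.03 over all genes. The call of Hoxc4 was lost on leaving out any 1 of 4 embryos (edgeR adjusted p up to 0.119), with 2 UMIs of Tfap2b required, without an embryo term, and after thinning, where Hoxc6 was lost too. After thinning, the log2 difference of Hoxc4 was 0.92 (edgeR adjusted p = 0.379) and that of Hoxc6 fell to 0.73 (edgeR adjusted p = 0.616). The 4 abundant members were called under every alternative run. Hoxc5 and Hoxc12 did not pass the filter (adjusted p without it 0.248 and 0.973). The log2 ratio of Tfap2b-positive to other neurons was 1.80 for summed HoxC, 1.36 for HoxA, 1.65 for HoxB and 1.61 for HoxD, and HoxC did not differ from the other clusters beyond the spread between embryos (exact two-sided sign-flip permutation test, adjusted p = 0.0820, 0.146 and 0.313). In the same contrast 2 of the 5 tested genes of a list of 9 astrocyte markers were higher, and the list summed to 224 to 397 CPM in Tfap2b-positive neurons and 172 to 230.5 CPM in the others. The part of these transcripts in the result was not tested.

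Presence of a Tfap2b UMI and membership of the Tfap2b-led cluster are different things, since the transcript itself was caught in 22.1% of the cluster's cells. Tfap2b-positive neurons made up 18.02% of the HoxC-positive neural cells. Within the cluster, Tfap2b-positive cells had a HoxC share of 68.8 ± 12.6% and the others 57.6 ± 2.33%, a difference of 11.2 ± 12.0 points that held in 8 of 9 embryos (exact two-sided sign-flip permutation test, p = 0.00781). Without the embryo with 11 Tfap2b-positive neurons, which gave 41.03 points, the mean difference was 7.42 points (7 of 8 embryos, exact p = 0.0156). Outside the cluster, 2 of 33 Tfap2b-positive neurons (6.06%) and 159 of 2818 others (5.64%) held a HoxC UMI, and only 1 embryo had enough cells, so no test was made. Cells without a Tfap2b UMI had 57.6 ± 2.33% inside the cluster and 6.52 ± 2.88% in the other neuron-like clusters. Both splits were chosen after the data were seen.

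**Figure D3:**
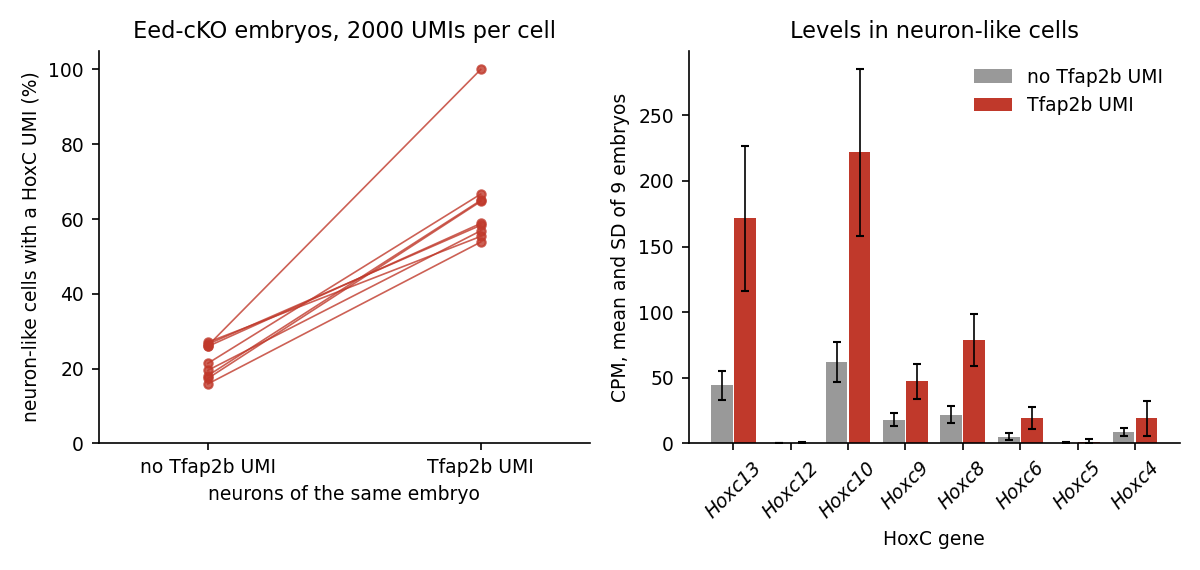
Left, share of neuron-like cells with a HoxC UMI (%) at 2000 UMIs per cell, with and without a Tfap2b UMI, where each line joins the values of 1 of 9 Eed-cKO embryos. Right, level of each HoxC gene (CPM, bars with the mean and SD of 9 embryos) without thinning. There the classes were set by a Tfap2b UMI before thinning, in neuron-like cells of every depth. All 9 lines rise from between 15.9 and 27.04% to 53.8% or more.

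Other kinds of neuron, each defined by a UMI of a marker gene, were compared with the remaining neurons of the same embryo. Of 21 kinds, 19 had enough cells, and 10 passed an adjusted p of 0.05 (exact two-sided sign-flip permutation tests, Benjamini-Hochberg over the 19). Higher HoxC shares were found in neurons with Tfap2a, the AP-2α gene (48.4 ± 15.05% against 23.9 ± 4.77%), in neurons with both Slc17a6 and Slc32a1, the vesicular glutamate and GABA transporters (55.4 ± 9.56% against 23.0 ± 4.53%), and in neurons with Slc32a1 alone (38.6 ± 4.97% against 22.9 ± 5.27%). Neurons with Sp8, Sp9 or Lhx6 (44.6 ± 6.91% against 24.2 ± 5.22%) and with Sst, the somatostatin gene (36.5 ± 8.67% against 24.6 ± 5.38%), were higher as well. Sst neurons were higher in 8 of 9 embryos, and the other 4 kinds in every embryo compared.

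Lower shares were found in neurons with Slc17a6 alone (20.6 ± 5.72% against 28.4 ± 6.43%), Foxb1 (6.51 ± 5.71% against 27.1 ± 4.42%), Barhl1 or Barhl2 (9.24 ± 7.15% against 25.8 ± 4.74%), Neurod2 or Neurod6 (16.7 ± 7.77% against 25.2 ± 4.77%) and Cartpt, a neuropeptide gene (14.5 ± 6.85% against 25.4 ± 4.67%). Neurod2 or Neurod6 neurons were higher in 1 of 8 embryos, and the other 4 kinds in none. Adjusted p-values of the 10 kinds ran from 0.0186 to 0.0297 (exact permutation tests). The call of Neurod2 or Neurod6 was lost on leaving out any of 7 embryos. Lhx5 neurons did not differ beyond the spread (25.9 ± 13.3% against 24.7 ± 4.63%, exact test, adjusted p = 0.766). Lhx9 neurons had 41.9 ± 12.0% against 24.0 ± 5.51%, higher in 6 of 7 embryos (exact test, adjusted p = 0.0742), and passed the threshold at 4000 UMIs (27.8 points, exact test, adjusted p = 0.0495) and without thinning (28.1 points, exact test, adjusted p = 0.0247). The cluster led by Gbx2 and Lhx9 went the other way, at 2.78% (1 of 36 cells, all of 1 embryo). Pax2, Avp or Oxt, Th, Pomc and Trh neurons were compared in 3 to 5 embryos, in which the smallest possible p was 0.0625 or more.

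With the Tfap2b-led cluster left out, 0 of 15 kinds passed the adjusted threshold and 4 had an unadjusted p under 0.05 by the same exact permutation test. Among these, the difference of neurons with Sp8, Sp9 or Lhx6 was nearly as large as before, 17.5 points against 20.4. They had 22.7 ± 8.27% against 5.19 ± 2.94% and were higher in 7 of 7 embryos (exact permutation test, adjusted p = 0.0781), where the unadjusted p of 0.0156 is the smallest that 7 embryos allow. Neurons with Slc32a1 alone had 12.3 ± 6.29% against 5.71 ± 3.02% and were higher in 7 of 8 (exact permutation test, adjusted p = 0.0781). Neurons with Slc17a6 alone had 3.799 ± 3.42% against 8.33 ± 3.98% (higher in 2 of 9, exact permutation test, adjusted p = 0.0879). Foxb1 neurons had 3.55 ± 3.31% against 6.79 ± 2.88% and were lower in 8 of 8 (exact permutation test, adjusted p = 0.0781).

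Neuron-like and astrocyte-like cells were compared next. Over all members, 25.6 ± 5.18% of neuron-like and 23.0 ± 6.38% of astrocyte-like cells held a HoxC UMI, a difference of 2.67 ± 9.18 points with neurons higher in 6 of 9 embryos (exact two-sided sign-flip permutation test, p = 0.492). Its direction turned with the depth and with the random draw. Another draw of 2000 UMIs gave −4.25 points (exact test, p = 0.262). Astrocyte-like cells were higher without thinning (neurons minus astrocytes −10.9 points, exact test, p = 0.0156), and neurons were higher by 5.65 points when 2 UMIs were required (exact test, p = 0.00391). A single order of the 2 cell types therefore cannot be given. Outside the Tfap2b-led cluster, 5.65% of 2851 neuron-like cells held a HoxC UMI, beside 23.9% of 322 astrocyte-like cells. These 2 shares were pooled over embryos and were not compared by a test.

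The members themselves differed between the 2 cell types. These 8 comparisons were chosen after the data were seen, and their exact p-values are unadjusted. Hoxc10 was found in 12.8 ± 2.74% of neuron-like and 2.42 ± 2.60% of astrocyte-like cells (neurons higher in 9 of 9 embryos, exact p = 0.00391). Hoxc13 was found in 9.68 ± 2.10% and 3.61 ± 3.27% (9 of 9, exact p = 0.00391). Hoxc6 went the other way, with 1.53 ± 0.740% of neuron-like and 7.86 ± 4.50% of astrocyte-like cells (astrocytes higher in 8 of 9, exact p = 0.00781). Hoxc8 (5.80 ± 1.29% and 6.79 ± 4.67%), Hoxc9 (4.29 ± 1.24% and 5.23 ± 4.55%) and Hoxc4 (1.96 ± 0.925% and 1.74 ± 3.12%) did not differ beyond the spread (exact p = 0.531, 0.598 and 0.859). At 4000 UMIs per cell, in 7 embryos, astrocytes were higher for Hoxc8 (neurons minus astrocytes −7.37 points, exact p = 0.0156) and Hoxc9 (−4.72 points, exact p = 0.0313). Hoxc5 and Hoxc12 were found in too few cells to compare. The direction for Hoxc6 and Hoxc10 was the same when cells were thinned to 1000 or 4000 UMIs, left as deposited, or freed of likely doublets. The Hoxc13 difference was 1.69 points at 4000 UMIs (7 embryos, exact p = 0.578). All these neuron-like cells include the Tfap2b-led cluster. Outside it, Hoxc10 was found in 2.00% and Hoxc13 in 1.33% of 2851 neuron-like cells. The pooled shares of 322 astrocyte-like cells were higher, 3.11% and 4.04%, and this order was not tested.

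**Figure D4:**
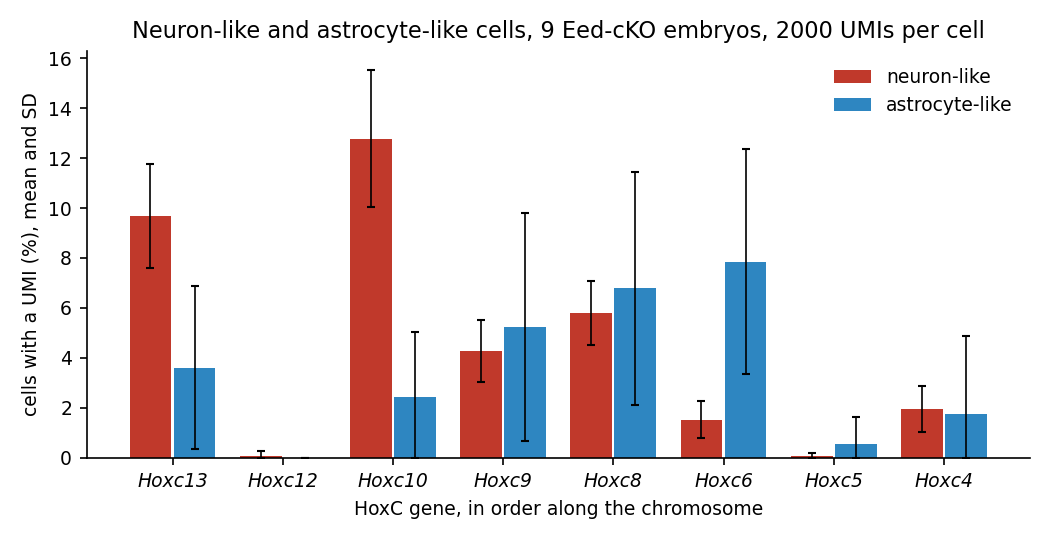
Share of neuron-like (red) and astrocyte-like (blue) cells with a UMI of each HoxC gene (%, vertical axis) at 2000 UMIs per cell. Bars are means of 9 Eed-cKO embryos with the SD, drawn down to 0 at most. Hoxc10 is at 12.8% in neurons and 2.42% in astrocytes, and Hoxc6 at 1.53% and 7.86%. Neuron-like cells include the Tfap2b-led cluster.

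The mixture of HoxC transcripts showed the same contrast. In the Tfap2b-led cluster Hoxc10 made up 38.8% of 4331 HoxC UMIs, Hoxc13 30.3%, Hoxc8 13.5%, Hoxc9 9.88%, Hoxc4 3.88% and Hoxc6 3.19%. In the other neuron-like clusters, with 621 UMIs, Hoxc10 made up 34.0%, Hoxc13 20.6%, Hoxc8 15.5%, Hoxc9 15.5%, Hoxc4 10.1% and Hoxc6 3.86%. In astrocyte-like cells, with 317 UMIs, Hoxc8 made up 23.3%, Hoxc6 22.1%, Hoxc9 18.9%, Hoxc13 14.5%, Hoxc10 13.9% and Hoxc4 4.73%. The 55 UMIs of non-neural cells were led by Hoxc8 (27.3%), Hoxc13 (25.5%) and Hoxc10 (21.8%).

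Next, it was asked whether HoxC genes were found in the same cells as each other and as other Hox clusters. For each embryo the number of cells with both was set against the number expected if each were spread over the neural cells at random. Summed over all pairs of HoxC genes, 555 joint detections were observed and 204 expected, a ratio of 2.72, above expectation in 9 of 9 embryos (exact two-sided sign-flip permutation test, p = 0.00391). Of the 1215 positive cells, 824 held 1 HoxC gene, 321 held 2 (170 expected), 62 held 3 (10.8 expected) and 8 held 4 (0.360 expected). Those with 4 were all in the Tfap2b-led cluster.

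Of 28 pairs of members, 10 had an expected number of at least 5 cells and were tested. Hoxc10 with Hoxc13 was seen in 153 cells against 46.0 expected (ratio 3.32), Hoxc8 with Hoxc10 in 88 against 29.4 (2.99), Hoxc9 with Hoxc13 in 49 against 17.1 (2.86), Hoxc8 with Hoxc13 in 61 against 22.8 (2.67), Hoxc8 with Hoxc9 in 29 against 10.97 (2.64) and Hoxc9 with Hoxc10 in 50 against 21.7 (2.30). These 6 pairs passed the test (exact permutation tests, adjusted p from 0.0130 to 0.0326). The pairs of Hoxc4 and Hoxc6 with Hoxc10 and Hoxc13 did not, with ratios of 1.395 to 2.37 (exact permutation tests, adjusted p from 0.0614 to 0.516). With the expected number taken within each cell cluster, the 6 pairs that passed had lower ratios. These ran from 1.03 (Hoxc9 with Hoxc10) to 1.32 (Hoxc8 with Hoxc10) and were not tested pair by pair.

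HoxC was also found together with the other clusters. HoxA and HoxC genes were both present in 585 cells against 238 expected (ratio 2.46), HoxB and HoxC in 424 against 183 (2.32), and HoxC and HoxD in 355 against 149.6 (2.37), each above expectation in 9 of 9 embryos (exact two-sided sign-flip permutation tests, p = 0.00391). Of HoxC-positive cells, 73.5% held a gene of another Hox cluster, and of HoxC-negative cells 19.9% did. All of HoxA, HoxB and HoxD were found in 6.502% of HoxC-positive and 1.07% of HoxC-negative cells. Among paralogues with the same number, Hoxc10 was seen with Hoxa10 in 110 cells (35.4 expected, ratio 3.11) and with Hoxd10 in 87 (30.4 expected, 2.87), Hoxc9 with Hoxa9 in 41 (13.4 expected, 3.07), Hoxc13 with Hoxb13 in 76 (28.4 expected, 2.68) and Hoxc8 with Hoxd8 in 16 (6.54 expected, 2.45). These 5 passed the test (exact permutation tests, adjusted p from 0.0107 to 0.0213), as did 45 of the 55 tested pairs with different numbers. The median ratio was 2.87 over the 5 and 2.66 over the 55, and the highest was between different numbers, Hoxc6 with Hoxa7 (23 cells, 5.06 expected, 4.55).

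Much of this joint detection lay between clusters of cells. When the expected number was taken within each cell cluster, the ratio was 1.23 for HoxC genes with each other (8 of 9 embryos, exact p = 0.0117), 1.26 for HoxA with HoxC (9 of 9, exact p = 0.00391), 1.22 for HoxB with HoxC (8 of 9, exact p = 0.00781) and 1.19 for HoxC with HoxD (9 of 9, exact p = 0.00391). Inside the Tfap2b-led cluster alone the ratios were 1.16, 1.18, 1.13 and 1.11. In all neural cells without that cluster they were 4.04, 3.52, 3.36 and 3.48 (73, 124, 95 and 71 joint detections). HoxC-positive neural cells were deeper than negative ones before thinning (median 4994 and 4117 UMIs), and cells under 2000 UMIs were left out of these counts.

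**Figure D5:**
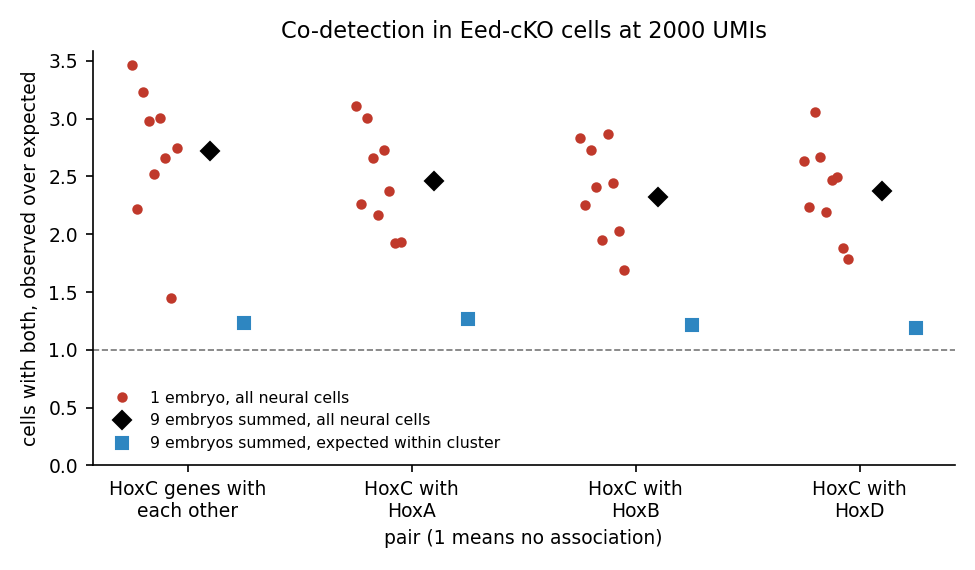
Joint detection in neural cells of the Eed-cKO at 2000 UMIs per cell, as cells observed over cells expected (vertical axis, 1 means no association). Red points are 9 embryos, black diamonds their sum, and blue squares the sum with the expectation taken within each cell cluster. Sums lie at 2.72, 2.46, 2.32 and 2.37, and at 1.23, 1.26, 1.22 and 1.19 within clusters.

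Transcripts from around the HoxC genes were read in the same neural cells. Hotair, the noncoding RNA transcribed from the opposite strand between Hoxc12 and Hoxc11, was at 0 in the 6 control embryos and at 3.09 to 8.90 CPM in the 9 Eed-cKO embryos (mean 5.62 ± 1.82, 174 UMIs, edgeR adjusted p = 2.68e-08). The genes outside the cluster and within 200 kb did not share this. Calcoco1 was at 10.2 ± 2.27 CPM in control and 11.1 ± 1.94 CPM in Eed-cKO neural cells (edgeR adjusted p = 0.704). Smug1, a DNA repair gene, was lower (25.3 ± 2.11 and 20.3 ± 2.87 CPM, log2 difference −0.33, edgeR adjusted p = 0.0145), and so was Cbx5, which encodes heterochromatin protein HP1α (382 ± 41.7 and 310.1 ± 26.8 CPM, log2 difference −0.31, edgeR adjusted p = 0.00367).

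Lists of related genes were read in the same fit. Among the other clusters, 7 of 7 tested HoxA genes, 7 of 7 HoxB genes and 5 of 5 HoxD genes were higher in the Eed-cKO, against 15.3% of all genes tested. These clusters had 9, 10 and 7 genes in the table, and those not tested did not pass the filter on low counts. The tested genes passed it only through the Eed-cKO, so their counts are no support of their own. All control cells together held 2 HoxA UMIs, 5 HoxB UMIs and 1 HoxD UMI. Of 9 genes for TALE homeodomain proteins, the DNA-binding partners of Hox proteins, 4 were higher and none was lower (median log2 difference 0.16, beside 0.01 over all genes tested), again against 15.3% and 12.4% of all genes. They were Meis1 (7.87 ± 2.25 to 29.0 ± 6.57 CPM, edgeR adjusted p = 6.97e-08), Meis2 (edgeR adjusted p = 0.0492), Pbx4 (0.0365) and Pknox2 (0.0487). Of 14 tested genes of retinoic acid synthesis, transport and response, which acts upstream of Hox genes in the trunk, 10 were higher and 1 was lower (median 0.65), where 15.3% of all genes tested were higher and 12.4% lower. Crabp1, a retinoic acid binding protein, went from 8.96 ± 3.55 to 86.2 ± 15.9 CPM (edgeR adjusted p = 6.73e-12), and Aldh1a1, a synthesising enzyme, from 41.8 ± 26.2 to 1.28 ± 0.940 CPM (edgeR adjusted p = 4.70e-07). Of 9 tested PRC2 genes, Eed alone passed the test, and it was lower. The Cdx genes, posterior homeobox genes that act upstream of Hox genes, had no row in the table.

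Inside the Eed-cKO, the same lists were read between Tfap2b-positive and other neurons. There, 8 of 8 tested HoxA genes, 6 of 7 HoxB genes and 5 of 7 HoxD genes were higher, against 3.43% of all genes tested. Their median log2 differences were 1.49, 1.65 and 1.52. Among the TALE genes that were higher were Meis2 (282 ± 82.6 and 124.7 ± 15.5 CPM, log2 difference 1.23 ± 0.08, edgeR adjusted p = 3.36e-33), Pbx3 (310.4 ± 47.1 and 187 ± 32.6 CPM, log2 difference 0.73 ± 0.07, edgeR adjusted p = 1.08e-17), Meis1 and Pknox2. Of the retinoic acid genes, Crabp1 and Cyp26b1 were higher. Of 9 tested PRC2 genes, 0 passed by edgeR and 0 by DESeq2, and Mtf2 and Rbbp7 had an unadjusted p under 0.05 by edgeR. Eed was at 23.5 ± 11.2 CPM in Tfap2b-positive and 23.7 ± 2.85 CPM in other neurons. Hotair was higher (9.19 ± 6.24 and 4.36 ± 2.62 CPM, edgeR adjusted p = 0.00935).

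Over 20 clusters of Eed-cKO neural cells, the genes not named Hox whose level was most like the summed HoxC level, among 10137 candidates, included Nkx2-5 (Pearson's r = 0.894), Nkx2-3 (0.887), Mira (0.880) and Meis2 (0.871). Mira is a noncoding RNA that RefSeq (GRCm38.p6) places inside the HoxA cluster, between Hoxa6 and Hoxa7. The clusters are made from the same libraries and are not replicates, so this is a description. Without the Tfap2b-led cluster the coefficients over 19 clusters were 0.874, 0.870, 0.861 and 0.841. In the Tfap2b-led cluster Nkx2-5 was at 22.2 CPM and Nkx2-3 at 34.6 CPM, against a median of 3.03 and 3.51 CPM over the other clusters.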

How the data were processed

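Single-cell libraries of E18.5 mouse hypothalamus were made with 3′ tagging and unique molecular identifiers, and 1 table of UMI counts was analysed. Per the labels and the methods of the study, the authors aligned reads to mm10 with STAR 2.5.2b (SAMtools 1.3), and deposited raw UMI counts per gene and cell after removing cells of low quality. The lowest cell of the table held 601 UMIs and 318 genes. Every column was assigned to a library from its name, with 0 columns left over, and 9 embryos against 6 were the replicates. Cells removed by the authors are not analysed here, and the depth of a cell limits how many transcripts of a low gene are caught.

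Clusters were built on the deposited UMI counts, with scanpy 1.11.5 for scaling and leidenalg 0.10.2 for the Leiden step (2000 variable genes, 30 components, 15 neighbours, resolution 1) without any Hox gene. Clusters took a cell type name only from lists of marker genes, when at least 3 markers were over 2-fold. Those without a name were counted as neural. Doublets were kept, and the 6% of cells per library with the highest Scrublet score were removed as an alternative. Counts of neural cells were summed per embryo, and those of neuron-like cells per embryo and Tfap2b class (at least 10 cells in each), and tested with edgeR 4.0.16 (TMM, quasi-likelihood test, embryo as a block in the second test), after a filter of 15 UMIs in all, 2 in a sample and a median log2 CPM over 1.5 in a group. P-values were adjusted over all genes tested. The scripts were tested on simulated data. DESeq2 1.42.0 and limma 3.58.1 were alternatives. Shares of cells were taken at 2000 UMIs per cell and compared within embryos by exact two-sided sign-flip permutation tests. Sequences and gene models came from GENCODE (GRCm38). The members, gene lists and neuron kinds were chosen with earlier results of these data known. All members were named, and genes of the lists were named when past the threshold or discussed, apart from a few that are not reported here.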

Additional observations from a re-analysis of the deposited data

Results flagged for a closer look

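Of 23 sets of Eed-cKO embryo values searched for a sample far from the others (Dixon's ratio of the gap to the range, which chance exceeds in about 1 of 20 groups), 2 held such a sample. The share of neural cells with Hoxc12 at 2000 UMIs was 0.372% in 1 male embryo (3 of 807 cells) against a median of 0%, with a ratio of 0.634. The difference in HoxC share between Tfap2b-positive and other neurons was 73.9 points in another male embryo against a median of 37.9 and a lowest value of 28.3 points, with a ratio of 0.583. That embryo had the fewest cells, and all 11 of its 11 Tfap2b-positive neurons held a HoxC UMI.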

How the results depend on the processing

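Neuron-like minus astrocyte-like HoxC share (2.67 points, not past the threshold) reversed with another random seed (−4.25), at 1000 UMIs per cell (−1.03), at 4000 UMIs (−14.9) and without thinning (−10.9), and passed the threshold when 2 UMIs were required (5.65). The number of neuron kinds past the threshold was 10, and 3 at 1000 UMIs, 12 at 4000 UMIs, 14 without thinning and 0 without the Tfap2b-led cluster. Without that cluster the differences of Cartpt (0.426), Hmx2 or Hmx3 (0.658), Neurod2 or Neurod6 (2.29), Nr5a1 or Fezf1 (1.68) and Th neurons (1.59) turned positive. Lhx5 neurons turned negative at 1000 UMIs (−4.47), without thinning (−0.507) and without 1 male embryo (−1.91, in a leave-one-out range up to 3.52), as did Lhx9 neurons at 1000 UMIs (−0.931 in 4 embryos, against 17.9). Neuron minus astrocyte shares reversed for Hoxc4 at 1000 UMIs (−0.129) and for Hoxc5 at 4000 UMIs (0.306). The cause was not tested in any of these.

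Leaving out each embryo in turn kept 6 to 6 members called between genotypes and 5 to 6 between Tfap2b classes. The difference in share between Tfap2b classes ran from 38.5 to 44.2 points, neural minus non-neural from 19.7 to 21.2, neuron minus astrocyte from 0.0397 to 3.799, and the kinds past the threshold from 9 to 10. The ratios of joint detection ran from 2.40 to 2.53 (HoxA), 2.24 to 2.42 (HoxB), 2.30 to 2.44 (HoxD) and 2.65 to 2.85 (HoxC genes with each other). The HoxC genes called between genotypes were 6 under every scaling and tool and 8 without the filter. Over all genes, 3474 were called between genotypes and 2335 by limma with a fold threshold, which 6 of 6 members also passed. Between Tfap2b classes, 934 genes were called, 554 without an embryo term, 505 after thinning and 609 by DESeq2, with 5, 4 and 6 members among them in turn. No paired analysis was possible between genotypes because no litter held both. At 2000 UMIs per cell a gene such as Hoxc12 or Hoxc5, found in under 0.2% of cells, is too rare for any comparison of cell kinds. Clusters at a resolution of 2 gave 42.5 points between Tfap2b classes and 4.78 points for neuron minus astrocyte, on the same side of the threshold as before. The values for neural minus non-neural cells and for joint detection over all neural cells were unchanged, so this setting was no check of them. All alternatives that leave out or keep only the Tfap2b-led cluster, and those on neuron kinds and single members in astrocytes, were added after seeing the data.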

Other observations

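HoxC transcripts were also counted in clusters without a cell type name, all of which were kept in the neural set. A cluster led by Alas2, Ccno and Cga held 223 Eed-cKO cells and 0 control cells, and 37 of 217 cells (17.1%) had a HoxC UMI at 2000 UMIs per cell. A cluster led by Sox10, Gpr17 and the cell cycle gene Ccnb1 held both genotypes, and 26 of 178 Eed-cKO cells (14.6%) were positive. A cluster led by Ttr and the pituitary hormone genes Cga and Tshb, with 61 Eed-cKO and 0 control cells, had 4 of 53 (7.55%). In the first of these Hoxc10 was the most frequent member (7.83%), and in the second Hoxc10 (5.06%), Hoxc8 (4.49%) and Hoxc13 (4.49%) were near each other. These shares are values of single clusters and were not compared by a test.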
